A study of Mus musculus with 3 samples.

Results

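The genes of the nonmuscle contractile apparatus and of focal adhesions were examined in PAM ChIRP-seq of activated satellite cells (ASCs), the muscle stem cells grown in culture. The 44 genes were listed by name and not by cell type, so some may also serve muscle. They run from nonmuscle myosin (Myh9) to the adhesion adaptor Lpp. All 44 were found in the GENCODE M1 annotation of mm9, Myl12a under an older symbol. They are 44 of the 22380 protein-coding genes there, and they were chosen with earlier results of these data known. Every region of either probe pool that overlapped the span of such a gene by at least 1 bp was taken, which gave 59 odd regions, out of 2112, and 12 even regions, out of 345.

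ChIRP-seq hybridizes biotinylated antisense probes to an RNA in crosslinked cells, pulls the probes down and sequences the DNA that comes with them. The RNA here is PAM, a noncoding RNA, and the ASCs came from Tg:Pax7-nGFP mice, in which a nuclear green fluorescent reporter follows the satellite cell gene Pax7. The satellite cells were isolated from hindlimb muscle by fluorescence-activated cell sorting before culture. Glutaraldehyde (1%, 10 min) served as crosslinker, and probes (100 pmol) were left to hybridize for 4 h at 37 °C. The odd and the even pool differed in their probes, no other treatment set them apart, and each was 1 library, so that replicate errors are missing throughout and nothing was tested. The input library was not analysed here, and neither list holds read counts, so the depth is unknown. All odd regions were 254 bp wide and all even regions 248 bp wide, and each carried a whole-number score of at least 4 whose meaning was not given in the sources used here. Scores were therefore read within a list and not between lists.

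Nonmuscle cells pull on their surroundings with bundles of actin filaments. Myosin II slides these filaments, tropomyosins, calponins and caldesmon coat them, and actinins and filamins tie them together. At a focal adhesion, talin and vinculin couple the filaments to integrins in the membrane, and LIM domain proteins such as zyxin assemble there under tension. Cofilin, profilin and the beta-thymosins supply and recycle the actin monomers, and in satellite cells this machinery serves spreading and migration.

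Of the 44 genes, 29 had at least 1 odd region, which is 65.9% (95% Wilson interval from 51.1% to 78.1%, counting error only). Over all protein-coding genes the share was 6.46%. An even region was found at 12 genes, or 27.3% (from 16.3% to 41.8%), against 0.996% of all protein-coding genes. All 12 also had an odd region, as did 156 of the 223 protein-coding genes with an even region. Both pools were thus present at 27.3% of the 44 genes, against 0.697% of all protein-coding genes. At 10 of the 12 the odd and the even region overlapped, as they did at 105 of the 156 protein-coding genes with both. Such an overlap was thus present at 22.7% of the 44 genes, against 0.469% of all protein-coding genes. These 12 genes were Myl12a, Mprip, Tpm1, Tpm2, Tpm4, Cnn3, Cfl1, Pfn1, Tmsb4x, Msn, Zyx and Lpp.

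More than 1 odd region was present at 16 genes, against 1.26% of all protein-coding genes. A single odd region was present at 13 genes, 2 at 7 genes, 3 at 5 genes, 4 at 3 genes and 5 at 1 gene, Flna. No gene had more than 1 even region. The odd regions at these genes had scores from 4 to 56 with a median of 9, and those at other protein-coding genes had a median of 6. The lowest score of the list, 4, was held by 10.2% of the former and 27.1% of the latter, and 30.5% against 10.8% had a score of at least 13. The even regions had scores from 4 to 14 with a median of 6.5, against 5 at other protein-coding genes.

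**Figure D1:**
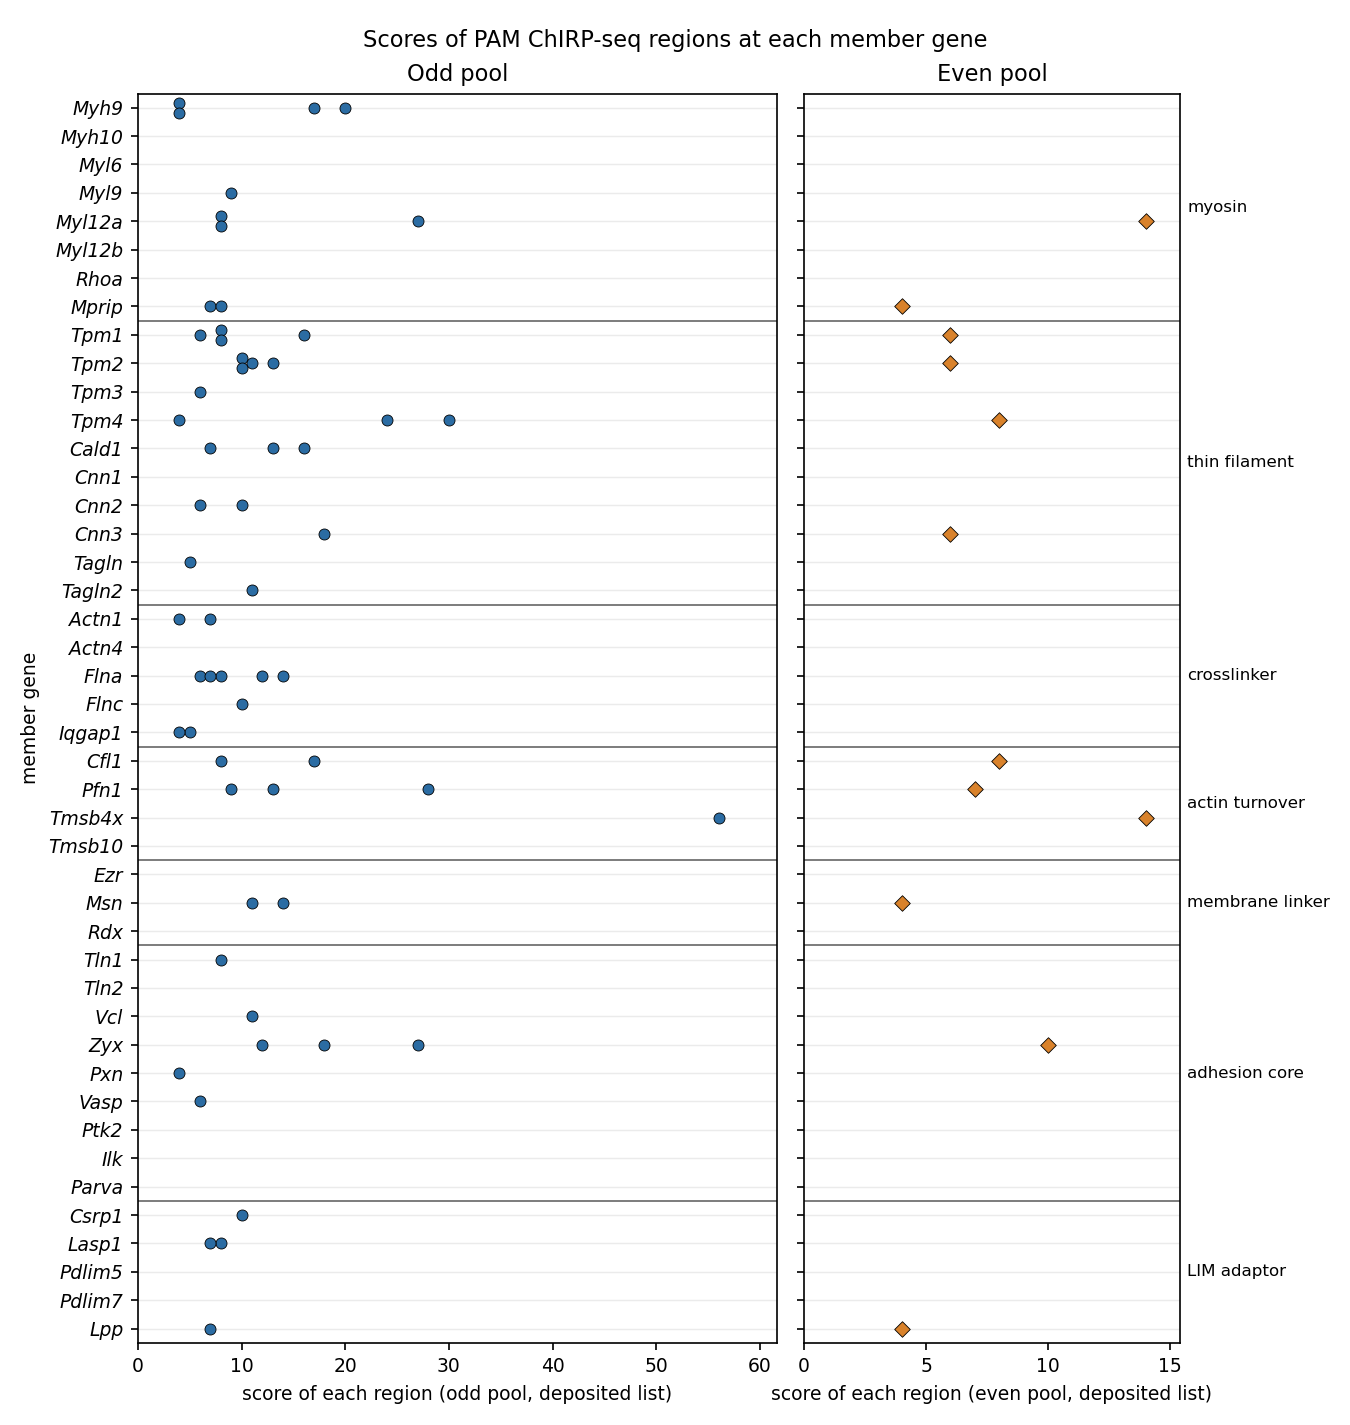
Score of each region (horizontal axes, no unit given) at the 44 genes, grouped by role, with odd regions on the left and even regions on the right. Each point is 1 region, equal scores of a gene are set apart vertically, and Tmsb4x stands at 56 in the odd pool and, level with Myl12a, at 14 in the even pool.

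Among the genes that supply actin monomers, Tmsb4x, which encodes the monomer-binding peptide thymosin beta 4, had 1 odd region with a score of 56 and 1 even region with a score of 14. The odd score ranked 10 among the 2112 of its list. Both regions were in exon 3 of 3, in the 3′ UTR, and shared 226 bp at chrX:163645194-163645419. Pfn1, which encodes the monomer-binding protein profilin 1, had odd scores of 9 in exon 1, 13 in exon 2 and 28 in exon 3 of 3. Each of its exons thus held an odd region, with the highest score in the last. Its even region, with a score of 7, shared 176 bp with that one. Cfl1, which encodes the filament-severing protein cofilin 1, had odd scores of 8 in exon 2 and 17 in exon 6 of 6. An even region with a score of 8 lay on the same last exon and shared 163 bp with the odd region. Each of these Cfl1 regions had a median of 2 copies of its 31-base words in mm9. They are thus uncertain where reads of the copies could be confused. Tmsb10, the close relative of Tmsb4x, had no region in either pool.

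Of the 8 myosin II genes and their regulators, 4 had an odd region and 2 an even region. Myh9, the heavy chain of nonmuscle myosin IIA, had 4 odd regions and no even region. Their scores were 4 in exon 2, 4 in exon 16, and 17 and 20 in exon 41, the last. Myl12a, a regulatory light chain, had odd scores of 8 in exon 2, 8 in exon 3 and 27 in exon 4 of 4, and an even score of 14 that overlapped the highest of them by 247 bp, all but 1 base of the even region. The regions of exons 2 and 3 matched the transcript of its near copy Myl12b at 96.9% and 95.6% identity, so they are uncertain where reads of both genes could be confused. Mprip, which brings myosin phosphatase to actin filaments, had odd scores of 7 in exon 13 and 8 in exon 23 of 23, and an even score of 4 in exon 23. Its odd and even regions did not overlap and lay 36 bp apart. The light chain gene Myl9 had a single odd region with a score of 9. Myh10, Myl6, Myl12b and the gene of the contractility switch Rhoa had none in either pool.

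The genes of filament-coating proteins had the highest odd share of the roles described here, with 9 of 10 carrying an odd region and 4 of 10 an even region. The exception was Cnn1. Tpm4 had odd scores of 4 in exon 3 and 30 and 24 in exon 8 of 8, and its even score of 8 overlapped the region of 30 by 187 bp. Tpm1 had odd scores of 8 in exon 1, 8 in exon 5, 16 in exon 10 of 10 and 6 on an exon that 5 of its 21 transcripts hold but the reference transcript, the one with the longest coding sequence, does not. Its even score of 6 overlapped the region of 16 by 77 bp. Both genes thus had their even region beside the highest odd one, in the 3′ UTR. Tpm2 was arranged differently, with odd scores of 10 in exon 1, 10 in exon 4 and 11 and 13 on 3′ exons outside its reference transcript. Its even region, with a score of 6, overlapped the region of exon 1 by 230 bp. Cnn3, which encodes an actin-binding calponin of nonmuscle cells, had an odd score of 18 and an even score of 6 in exon 7 of 7, which shared 144 bp. The other genes of this role had odd regions alone. Cald1 (caldesmon) had odd scores of 7, 13 and 16, Cnn2 had 6 and 10, Tagln2 had 11, Tpm3 had 6 and Tagln had 5. The region of Tpm3 had a median of 2 copies of its 31-base words in mm9, so it is uncertain in the same way as those of Cfl1.

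At Tpm1, Tpm2 and Tpm4 an odd region covered the same internal coding exon of 118 nt, whole in each case. The exon is exon 5 of Tpm1 (chr9:66881683-66881800, minus strand), exon 4 of Tpm2 (chr4:43532261-43532378, minus strand) and exon 3 of Tpm4 (chr8:74667349-74667466, plus strand), and the scores of the odd regions were 8, 10 and 4. It was chosen after these regions had been seen. The fourth tropomyosin gene, Tpm3, has the exon as its exon 4 (chr3:89891377-89891494, plus strand) and had no region there. Of the 31-base words of the Tpm3 exons, 71.2% occur more than once in mm9. The share was 0.459% for Tpm1, 1.09% for Tpm2 and 35.3% for Tpm4. As reads were mapped uniquely, a region at this exon of Tpm3 could have been missed, which was not tested. The sequences are given on the strand of each gene, to let the exon be compared between the genes with and without a region, and capitals mark the bases that differ from Tpm1.
Tpm1 exon 5: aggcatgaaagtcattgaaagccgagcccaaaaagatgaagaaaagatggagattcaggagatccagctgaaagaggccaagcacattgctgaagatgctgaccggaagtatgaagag
Tpm2 exon 4: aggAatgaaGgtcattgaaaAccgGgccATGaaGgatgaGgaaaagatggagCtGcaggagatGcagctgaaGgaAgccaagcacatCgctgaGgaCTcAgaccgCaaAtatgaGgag
Tpm4 exon 3: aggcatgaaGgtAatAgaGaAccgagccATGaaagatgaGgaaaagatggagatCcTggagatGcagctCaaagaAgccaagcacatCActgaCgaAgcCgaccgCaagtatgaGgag
Tpm3 exon 4: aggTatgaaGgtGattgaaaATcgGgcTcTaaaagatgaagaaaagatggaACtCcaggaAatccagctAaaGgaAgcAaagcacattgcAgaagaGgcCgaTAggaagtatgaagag
Tpm2 differed from Tpm1 at 22 of the 118 bases (81.4% identity), and Tpm4 and Tpm3 at 21 each (82.2%). The longest stretch without a difference was 12 bases for Tpm2, 14 for Tpm4 and 21 for Tpm3, so the gene without a region shared the longest stretch with Tpm1.

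Of the 5 genes for proteins that tie filaments together, 4 had an odd region and none had an even region. Flna encodes filamin A, a large crosslinker that also binds integrins. Its 5 odd regions had scores of 7 in exon 1, 6 in exon 2, 8 in exon 21, 12 in exon 40 and 14 in exon 47 of 47, and the 4 upstream ones were in coding sequence. Actn1 had odd scores of 4 and 7, Flnc had 10, and Iqgap1 had 4 and 5. The region of Iqgap1 with a score of 4 was the single one of the 59 whose midpoint lay on no annotated exon of its gene. Actn4 had no region. Of the 3 genes for proteins that link filaments to the membrane, Msn (moesin) had odd scores of 14 and 11 in exon 13 of 13, in the 3′ UTR, and Ezr and Rdx had none. The even region of Msn had a score of 4 and lay in coding exon 4 of 13, 14067 bp from the nearest odd region by midpoint.

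Of the 9 core adhesion genes, 5 had an odd region. Zyx, which encodes the adhesion protein zyxin, had odd scores of 12 in exon 3, 18 in exon 5 and 27 in exon 10 of 11. Its even region had a score of 10, lay in coding exon 5 and shared only 20 bp with the odd region of that exon, end to end. Vcl (vinculin) had an odd score of 11, Tln1 (talin 1) of 8, Vasp, an actin elongation factor, of 6 and Pxn (paxillin) of 4, and none of these had an even region. Tln2, Ptk2 (focal adhesion kinase), Ilk and Parva had no region in either pool. Among the 5 genes of LIM adaptors, Lpp had an odd score of 7 and an even score of 4 that shared 173 bp in exon 13 of 13. Csrp1 had an odd score of 10 and Lasp1 scores of 8 and 7, while Pdlim5 and Pdlim7 had none.

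At Zyx and Msn the even region lay wholly in coding sequence. These regions are shown because 1 met the odd pool only at its end and the other lay far from it. The odd region of Zyx exon 5 holds 236 coding bases and runs on into the intron. The sequences are mm9, plus strand, which is the coding strand of both genes, and capitals mark the bases that both pools covered.
Zyx even region, chr6:42301505-42301752: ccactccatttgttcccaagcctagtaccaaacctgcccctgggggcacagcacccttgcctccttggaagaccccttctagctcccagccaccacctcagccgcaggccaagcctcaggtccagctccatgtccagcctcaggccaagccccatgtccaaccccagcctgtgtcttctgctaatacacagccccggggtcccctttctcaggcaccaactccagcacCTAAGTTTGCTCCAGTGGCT
Zyx odd region, chr6:42301733-42301986: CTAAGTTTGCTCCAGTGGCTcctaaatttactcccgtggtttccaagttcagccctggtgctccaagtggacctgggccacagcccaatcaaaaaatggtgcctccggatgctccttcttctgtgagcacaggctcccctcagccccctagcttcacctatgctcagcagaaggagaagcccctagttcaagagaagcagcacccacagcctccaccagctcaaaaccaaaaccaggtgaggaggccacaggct
Msn even region, chrX:93347886-93348133: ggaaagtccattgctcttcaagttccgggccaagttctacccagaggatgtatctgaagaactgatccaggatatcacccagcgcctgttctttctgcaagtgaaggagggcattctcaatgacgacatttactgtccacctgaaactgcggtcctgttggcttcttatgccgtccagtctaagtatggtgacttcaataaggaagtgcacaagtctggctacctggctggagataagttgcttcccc

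Of the 59 odd regions, 58 had their midpoint on an annotated exon of their gene, which is 98.3% (from 91.0% to 99.7%), against 85.0% of the odd regions at other protein-coding genes. By the reference transcript, 25 midpoints were coding (42.4%, against 32.2% at other genes) and 28 were in a 3′ UTR (47.5% against 48.0%). Over their whole width, 34 of the 59 regions (57.6%) lay on exons, against 60.0% at other genes, and the rest lay partly or wholly outside. Only 3 (5.08%) lay within 500 bp of the start of the gene, against 3.62% at other genes. All 12 even midpoints were on exons, against 70.4% at other genes. Of the 12, 9 were in a 3′ UTR (75.0%, against 38.7%) and 3 in coding sequence (25.0%, against 27.0%).

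Of the 54 odd midpoints on an exon of the reference transcript, 30 were on its last exon, which is 55.6% (from 42.4% to 68.0%). Averaged over these midpoints, the last exon made up 40.2% of the length of its transcript. At other protein-coding genes 69.7% of the midpoints were on the last exon, with 46.3% of the length by the same average. The median distance to the transcript end was 1018.5 nt, against 908 nt at other genes. Of the 54, 27 were within 1000 nt of the end. At 25 of the 29 genes the odd region with the highest score was on the last exon, and the exceptions were Tpm2, Tagln, Zyx and Pxn. At Tpm2 and Pxn that region lay outside the reference transcript, on exons of other transcripts. Neither the count within 1000 nt nor that of highest regions was made for other genes, so neither sets these genes apart. Of the 12 even midpoints, 9 were on the last exon (75.0%), against 70.3% at other protein-coding genes.

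**Figure D2:**
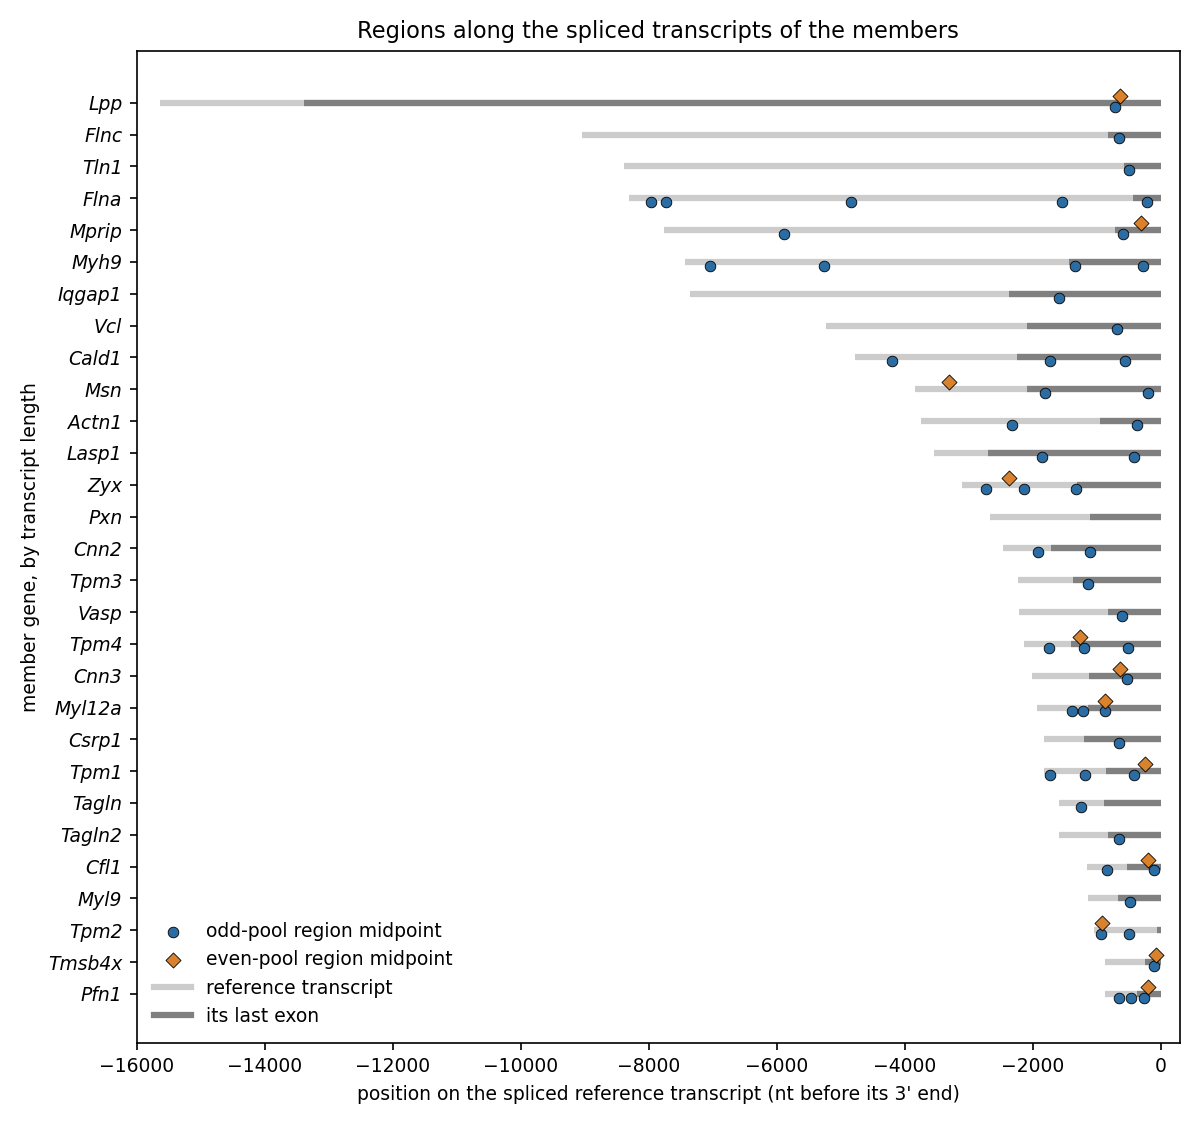
Position of each region midpoint along the reference transcript (horizontal axis, nt before the 3′ end) for the 29 genes with a region, with odd regions as circles, even regions as diamonds and the last exon in dark grey, leaving out midpoints that are on none of its exons. Most even points lie beside an odd point on the last exon, while those of Msn, Tpm2 and Zyx lie upstream of it.

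In 8 of the 12 genes with both pools, the even region overlapped the odd region with the highest score of the gene. Where a gene had a single odd region, any overlap was with the highest by construction. Of the 9 genes with both pools and more than 1 odd region, 5 had the even region on the highest. Neither count was made for other genes. At Tpm2 and Zyx the even region overlapped a lower-scoring odd region. At Mprip and Msn it overlapped none, with gaps of 36 bp and 13816 bp to the nearest odd region. Over the 10 shared loci, the odd and even scores had a Spearman correlation of 0.74, beside 0.72 over all 147 shared loci. Loci within a pool share a library and its depth, so these correlations are descriptions.

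The length of the spliced transcript was compared, since a longer transcript offers more exonic sequence to overlap. Genes were counted by their whole span, introns included, and the length of the span was not compared. The reference transcripts of the 44 genes had a median of 2563.5 nt. Among genes with transcripts up to 1221 nt, 5 of 7 had an odd region (71.4%), against 2.81% of all protein-coding genes of that length, and 4 of 7 had an even region, against 0.572%. Among those of 3605 nt or more, 11 of 18 had an odd region (61.1%, against 9.14%) and 3 of 18 an even region (16.7%, against 1.38%). Across the 44 genes, the number of odd regions and the length of the transcript had a Spearman correlation of 0.03. Across the 29 with an odd region, the highest odd score and the length had a correlation of -0.33. Expression was not measured in these files, and its part in the shares was not tested.

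**Figure D3:**
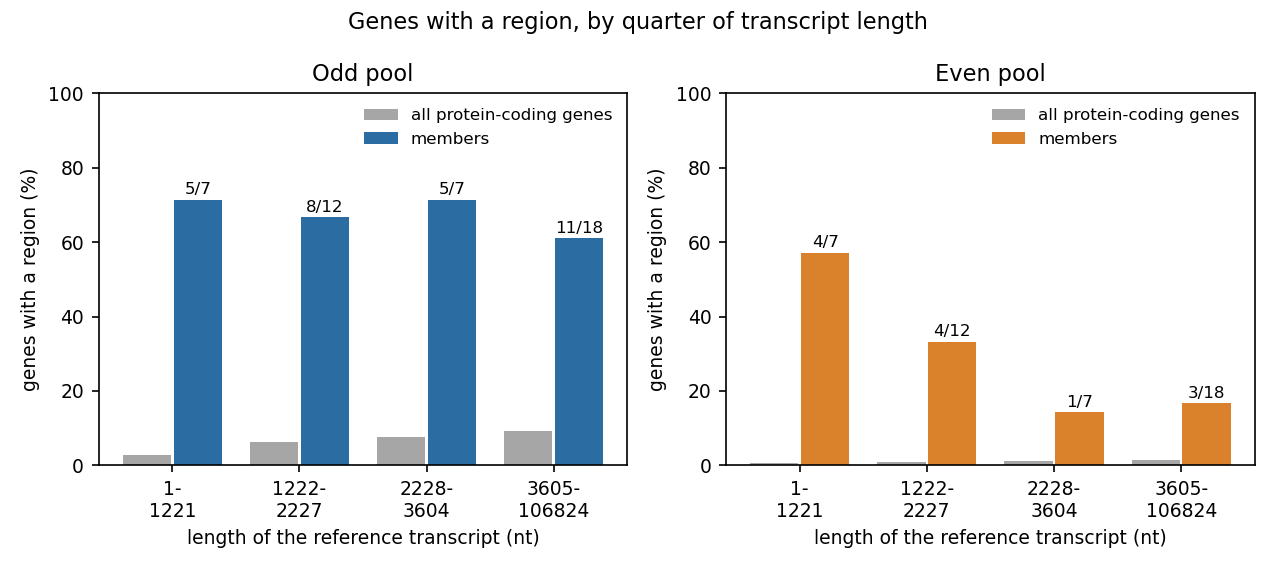
Percent of genes with a region (vertical axes) in 4 classes of reference transcript length, for the contractile and adhesion genes and for all protein-coding genes, in the odd and the even pool. The contractile and adhesion genes stand above all genes in each class, from 61.1% to 71.4% in the odd pool.

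Other genes of the same pathway were listed separately, also with earlier results of these data known. Of these 88 genes for kinases, nucleators, capping proteins and further adhesion proteins, 33 had an odd region, or 37.5% (from 28.1% to 47.9%), and 2 had an even region (2.27%). Among them was Capza2, which encodes a protein that caps filament ends, with an odd score of 9 and an even score of 4. The transcription factor genes that drive many contractile genes, Srf, Mkl1, Mkl2 and Myocd, had no region. Of 30 relatives of these genes, all sarcomeric or smooth muscle genes except the nonmuscle myosin heavy chain gene Myh14, 7 had an odd region, or 23.3% (from 11.8% to 40.9%), and 1 an even region. Myh14 had neither. The gene with an even region was Tnnc1, the troponin C of slow and cardiac muscle, with odd scores of 7, 8, 10 and 7 and an even score of 4.

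**Figure D4:**
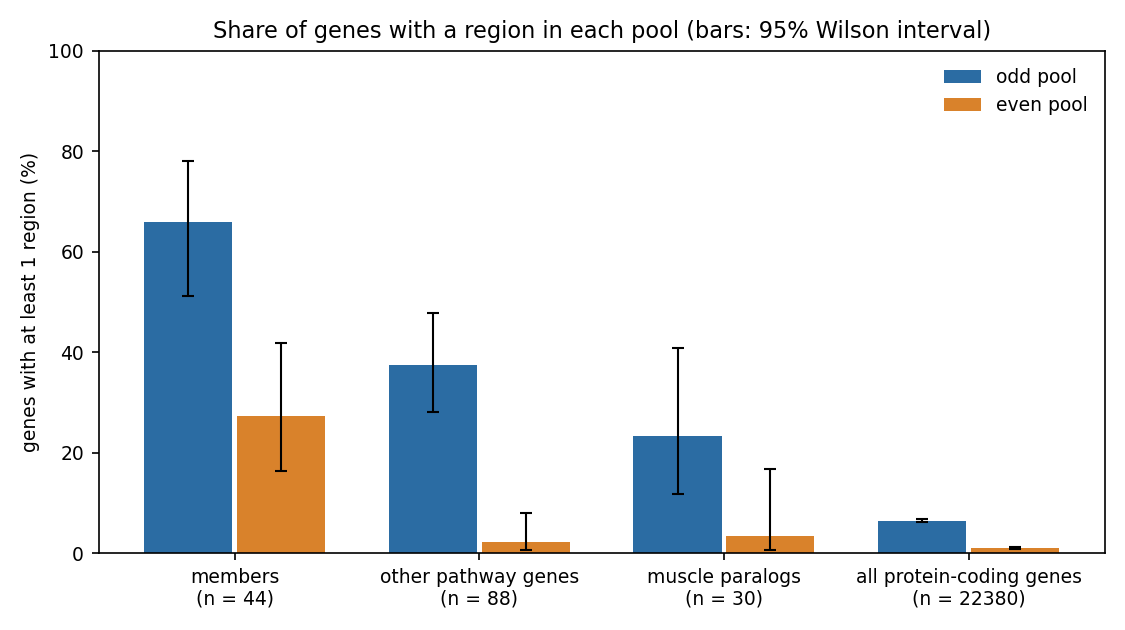
Percent of genes with a region (vertical axis, bars from 0) in the odd and the even pool, for the contractile and adhesion genes, the other pathway genes, the muscle relatives and all protein-coding genes. Error bars are 95% Wilson intervals, and the contractile and adhesion genes reach 65.9% in the odd and 27.3% in the even pool.

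Of 20 markers of cell types, 7 had an odd region (35.0%, from 18.1% to 56.7%), against 6.46% of all protein-coding genes. An even region was present at 4 of the 20 (20.0%, from 8.07% to 41.6%), against 0.996%. Of the 8 satellite cell markers among them, 4 had an odd region. These were Des, with odd scores of 19 and 45 and even scores of 5 and 8, Itga7, with odd scores of 8, 6, 10 and 9 and 2 even scores of 5, Vcam1 and Sdc4. Pax7, Myod1, Myf5 and Cdh15 had none. Of 3 markers each, endothelial and immune cells had none with a region, fibroadipogenic cells had 2 (Dcn, and Ly6a with an odd score of 25 and an even score of 7) and smooth muscle had 1 (Acta2, with 6 odd scores from 7 to 21 and an even score of 10). A region is not a level of RNA, so these counts do not measure which cells were present. The cell sort is meant to leave out the other types, and their part in the shares was not tested.

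Some of the 15 genes without a region have near copies elsewhere in the genome, and reads were mapped uniquely. Tmsb10 matched an odd region with a score of 12 and an even region with a score of 4 at its pseudogene Gm9844 on chromosome 7, at 99.0% and 99.1% identity. Myl6 matched an odd region at Gm5526 on chromosome 1 (99.6%, score 5), Rhoa 1 at Gm12844 on chromosome 4 (97.6%, score 5) and Ilk 1 at Gm6263 on chromosome 13 (96.8%, score 7). The same was seen for genes that had regions of their own. Cfl1 matched an odd region with a score of 17 and an even region with a score of 5 at Gm6180 on chromosome 8, and Tpm4 matched an odd region with a score of 15 at Gm7809 on chromosome 17 (99.2%). Repeated sequence was found in genes of both kinds. Among the genes without a region, the share of 31-base words of the exons that occur more than once in the genome ran from 0% (Cnn1, Rdx, Ptk2 and Pdlim7) to 89.1% (Myl6), with 61.3% at Rhoa and 52.5% at Tmsb10. Among the genes with a region it ran from 0%, as at Tmsb4x, to 71.2% (Tpm3), with 59.3% at Cfl1, 42.3% at Cnn3 and 35.3% at Tpm4. Over the whole list the median was 1.41% for the 29 genes with a region and 3.94% for the 15 without.

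The probe sequences were compared with the regions, as a probe can also pair with DNA that resembles its target. The 6 probes of 20 nt are shown 5′ to 3′ with capitals for the longest run that each shares, on either strand, with a region of these genes. Which probes made up each pool was not given in the sources used here.
probe 1: gccagAAAGAATGGAtgact
probe 2: gcattttcaGTGGGATCAca
probe 3: aCCTGCCATCTgctatcaaa
probe 4: tcTTCACAAACCctcatgat
probe 5: acaagtacttCAGCTCCATG
probe 6: gttctgatatgtAAGCTCCT
The capitals of probe 5 can be read in the even region of Zyx above. No run was longer than 10 bases, and the other runs were found in odd regions of Actn1 (probe 1), Tpm1 (probe 2), Tpm2 (probe 3), Cnn2 (probe 4) and Myh9 (probe 6). Where runs tied in length, only 1 is marked. A run as long was also present for probe 3 in a Cald1 odd region (score 7), and for probe 6 in both regions of Tmsb4x, among others. A run of at least 10 bases was present in 4 of the 59 odd regions (6.78%), against 4.5% of the whole odd list, and in 1 of the 12 even regions, against 8.12% of the whole even list.

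A few regions lay where genes on opposite strands overlap, and the lists carry no strand. The regions of Myl12a also overlapped Gm16724, those in the last exons of Mprip and Tpm4 overlapped Gm12264 and Gm16091, and that of Vcl overlapped Ap3m1.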

How the data were processed

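PAM ChIRP-seq of ASCs gave 1 library for the odd and 1 for the even probe pool. The authors aligned the reads with Bowtie2 against mm9, kept unique alignments and used MACS2 for peaks (versions not given in the sources used here). The score in the deposited lists is theirs and was not rescaled. The deposited start was taken as 0-based, so printed starts are 1 above it. Depth is unknown, and replicates were absent, so no test was made.

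Gene spans and exons came from GENCODE M1. A gene was counted where a region overlapped its span by at least 1 bp, and exon positions were read at the region midpoint in the protein-coding transcript with the longest coding sequence. Named with all their scores and exons were genes with an even region, with 1 of the 10 highest odd scores or with at least 4 odd regions, and of other lists those with an even region or an odd score reaching the lowest of those 10. One gene of the other lists is not reported here. Other genes are named with fewer values to account for every member. Transcripts were matched to regions by megablast (at least 90% identity over 125 bp), and 31-base words were counted in mm9. Counting was checked on simulated data, where 200 of 200 planted overlaps were recovered. The members, lists and comparisons were chosen with earlier results of these data known. Probe sequences came from the study's supplement. Python 3.11.15, pandas 2.3.3, NumPy 2.4.6, SciPy 1.17.1, numba 0.67.0, pysam 0.24.0, samtools 1.23.1, BLAST 2.17.0 and matplotlib 3.10.9 were used.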

Additional observations from a re-analysis of the deposited data

How the results depend on the processing

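Across 8 alternatives, 57 of 60 values moved by less than their counting interval or, for counts, by less than 1.5 times. The share of genes with an odd region ranged from 61.4% to 68.2%, that with an even region from 20.5% to 29.5%, and the shared loci from 9 to 10. The 3 others concern position. The share of regions on an exon was 100.0% when regions of the lowest score were left out and 100.0% in the even pool, and the share on the last exon was 75.0% in the even pool. The even values rest on 12 regions. No paired analysis was possible because both pools were single libraries. Without read counts, a gene without a region cannot be told from one below the peak threshold.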

Other observations

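Regions also lay close to genes of the list without touching them. An odd region with a score of 5 lay 153 bp downstream of Pdlim5, a LIM adaptor of actin bundles, and an even region with a score of 5 lay 927 bp upstream of Rhoa. Neither gene had a region within its span. The deposited lists held regions at near copies of Tpm3 and Cnn3 as well. Tpm3 matched an odd region with a score of 6 at Tpm3-rs7 on chromosome 14 at 100% identity. The region of Tpm3 itself also had a score of 6 and is uncertain, as said above. Cnn3 matched an odd region with a score of 4 within Abcb4 on chromosome 5 at 94.9% identity.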
